A study of Mus musculus with 2 samples.

Results

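The 10 genes described here belong to the Toll-like receptors, the inflammasome and pyroptosis: the receptors Tlr2 and Tlr4 with the co-receptor Cd14, the adaptor Myd88, the sensor Nlrp3, the inflammasome adaptor Pycard, the caspases Casp1 and Casp4, the pore-forming protein Gsdmd and the cytokine Il18. They were chosen by name, as the rows of both count matrices that carry these symbols, and all 10 were listed in both libraries, of 28695 genes listed in either library. Toll-like receptors bind microbial molecules at the cell surface or in endosomes and signal through MyD88 to induce inflammatory genes. Inflammasomes are complexes in which a sensor such as NLRP3 recruits the adaptor ASC, the product of Pycard, and so activates caspase-1, which cleaves gasdermin D and the precursors of interleukin-1 beta and interleukin-18. Cleaved gasdermin D forms pores in the plasma membrane, through which cytokines leave the cell and by which it can die, a death called pyroptosis. In the colon the epithelium is a known source of interleukin-18, while macrophages and neutrophils are known for CD14, TLR2 and NLRP3.

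Single-cell RNA-seq was measured in colon from mice that received dextran sulfate sodium (DSS), which damages the epithelium of the colon and is widely used to induce colitis. Wild-type (WT) mice gave 1 library, and the other came from mice labelled Elf-1 KO or Elf-1-/-, lacking by label the ETS-family transcription factor Elf1. Both groups were C57BL/6 mice 8 to 10 weeks old, both received DSS, and neither library came from untreated animals. Cells of 3 mice were pooled in each library, from proximal colon, distal colon and rectum. The sources used here do not give the dose and days of DSS, the sex of the mice, the deleted part of Elf1 or whether it was deleted in every cell. Each group is a single library whose cells cannot be assigned to mice, so no test between groups was possible. Values are therefore given for each library with 95% intervals that cover counting error only, and every direction follows the labels.

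After filtering, 7718 cells with 29823446 UMIs (unique molecular identifiers, each counting 1 captured RNA molecule) remained in the wild-type library and 9474 cells with 37261926 UMIs in the library labelled knockout, at medians of 2022.5 and 2636 UMIs per cell. Elf1 stood at 192 against 181 CPM (UMIs per 1000000 UMIs) over all cells, so the library labelled knockout held Elf1 RNA at a ratio of 0.945 (0.912 to 0.979), and this level checks nothing about the deletion. Cells fell into 13 classes named from marker genes, of which 8 had at least 100 cells in each library. Cells named epithelial numbered 1027 (13.3%) in the wild-type library and 13 (0.137%) in the other, so no class of epithelium could be compared. A cluster of 30 and 71 cells led by Chgb, Chga and Tph1, genes of enteroendocrine cells of the epithelium, stayed unnamed and is not counted there. Neutrophils numbered 167 against 1256. Genes on the marker lists of other classes were also counted in every class compared. The summed neutrophil markers stood at 71.6 to 1580 CPM outside neutrophils in the wild-type library and at 750.5 to 11488 CPM in the other. Both upper ends were in endothelial cells, where Lcn2, itself on the neutrophil list, stood at 1456 against 9627 CPM. In fibroblasts Lcn2 stood at 326 against 2740 CPM and in neutrophils at 4144 against 9687 CPM. These sums are thus not read as RNA of neutrophils alone. The summed epithelial markers stood at 296 to 634 against 12.02 to 78.8 CPM. The libraries shared 57 cell barcodes before filtering, 44 of them among the cells kept in each.

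By the GENCODE annotation of GRCm38, Tlr2 (ENSMUSG00000027995) lies on chromosome 3 from 83836272 to 83841767 on the minus strand and Tlr4 (ENSMUSG00000039005) on chromosome 4 from 66827584 to 66930284 on the plus strand. Cd14 (ENSMUSG00000051439) is on the minus strand of chromosome 18. Myd88 (ENSMUSG00000032508) runs from 119335934 to 119341411 on the minus strand of chromosome 9. Nlrp3 (ENSMUSG00000032691) runs from 59541568 to 59566956 on the plus strand of chromosome 11, and Pycard (ENSMUSG00000030793) from 127989708 to 127993867 on the minus strand of chromosome 7. Casp1 (ENSMUSG00000025888, 5298517 to 5307265) and Casp4 (ENSMUSG00000033538, 5308828 to 5336783) are neighbours on the plus strand of chromosome 9, which also holds Il18 (ENSMUSG00000039217, 50554827 to 50581840, plus strand). Gsdmd (ENSMUSG00000022575) runs from 75862327 to 75867408 on the plus strand of chromosome 15. UMIs were counted per gene, so positions within a gene were not resolved, and levels are compared below within a gene and not between genes.

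Over all cells, the myeloid members were higher and the members found in the wild-type epithelium lower in the library labelled knockout. Cd14 stood at 351 against 1593 CPM (4.53-fold higher, 4.44 to 4.63), Tlr2 at 32.7 against 77.5 CPM (2.37-fold, 2.20 to 2.55) and Nlrp3 at 48.9 against 111 CPM (2.28-fold, 2.15 to 2.42). Il18 stood at 82.1 against 9.93 CPM (a ratio of 0.121, 0.108 to 0.135), Pycard at 239.5 against 57.4 CPM (0.239, 0.228 to 0.251), Casp1 at 82.1 against 35.8 CPM (0.436, 0.407 to 0.466) and Gsdmd at 70.9 against 33.04 CPM (0.466, 0.434 to 0.5005). Tlr4 (10.3 against 16.5 CPM), Myd88 (49.7 against 58.9 CPM) and Casp4 (62.5 against 85.4 CPM) were less than 2-fold apart. In such a sum, fewer cells of a type and less RNA per cell cannot be told apart. Without the cells named epithelial in both libraries, Il18 stood at 11.3 against 9.93 CPM (0.877, 0.747 to 1.03). Casp1 then stood at 44.3 against 35.8 CPM (0.807, 0.744 to 0.877) and Gsdmd at 37.3 against 33.02 CPM (0.885, 0.811 to 0.967). Pycard alone of these 4 remained more than 2-fold lower without them, at 129 against 57.4 CPM (0.443, 0.419 to 0.469). Without neutrophils, Cd14 still stood at 270 against 877 CPM (3.25-fold, 3.17 to 3.33).

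**Figure D1:**
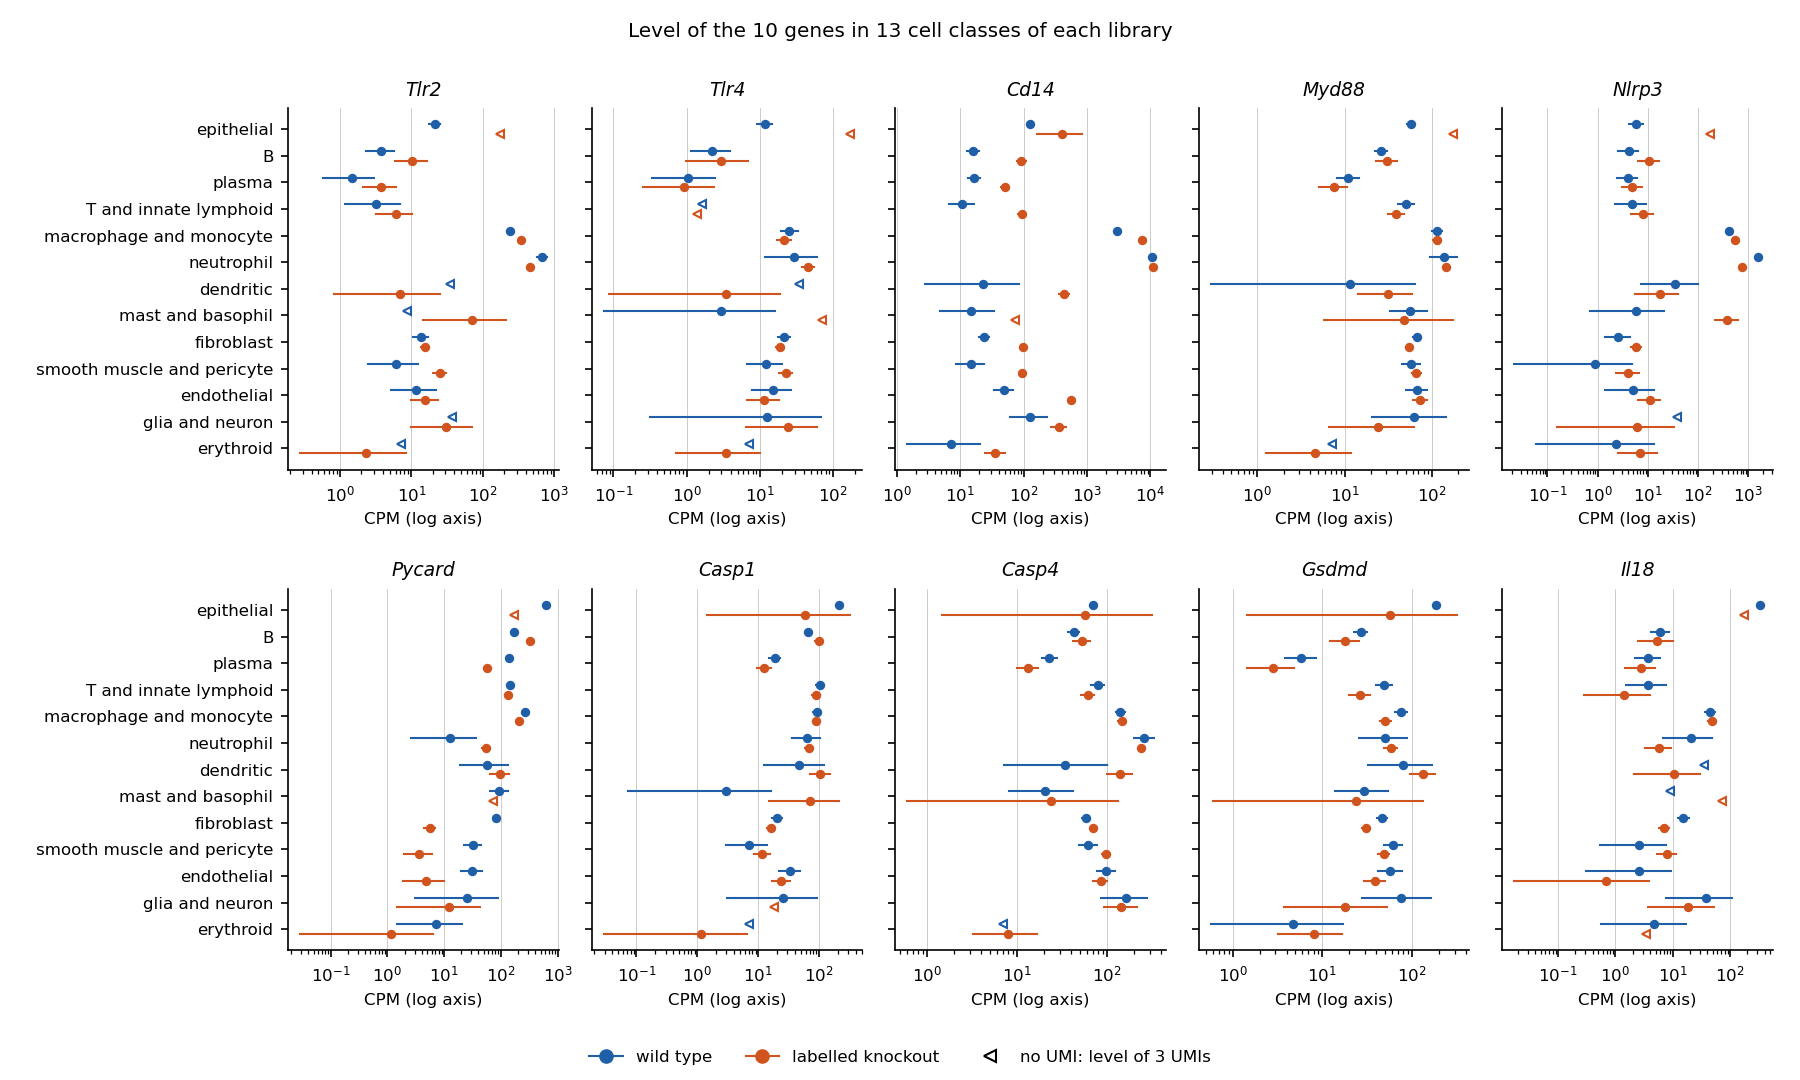
CPM of each gene (x axis, log scale, its own range in each panel) in 13 cell classes (y axis) of the wild-type library (blue) and the library labelled knockout (orange). Points are sums of UMIs over the cells of a class, lines exact Poisson 95% intervals for counting error, and open triangles mark classes with no UMI, at the level 3 UMIs would give. Cd14, Tlr2 and Nlrp3 were highest in neutrophils and macrophages, and Pycard, Casp1, Gsdmd and Il18 in the wild-type epithelium.

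The counts of members apart between libraries within a class were small. A gene was compared in a class where it had at least 50 UMIs over both libraries, and it was called apart at 2-fold or more. Of the 80 pairs of a member and a class, 59 could be compared, of which 10 were at least 2-fold higher in the library labelled knockout, 5 at least 2-fold lower and 44 within 2-fold. Scaled by TMM (trimmed mean of M-values) the split was 13 against 3, since that scaling puts the level of most genes at a log2 shift of -0.39 in neutrophils, -0.38 in fibroblasts, -0.30 in smooth muscle cells and pericytes, -0.20 in endothelial cells and -0.17 in macrophages and monocytes, and raises the ratios there by as much. In B cells 1 of 6 members compared was higher and 0 lower, where 3.96% of 8560 genes were higher and 6.32% lower. In plasma cells 1 of 5 was higher and 1 lower (5.95% and 4.85% of 5095 genes). In T and innate lymphoid cells 1 of 6 was higher and 0 lower (5.32% and 3.55% of 7475 genes). In macrophages and monocytes 1 of 10 was higher and 0 lower (4.9% and 6.89% of 7841 genes). In neutrophils 1 of 9 was higher and 1 lower (11.2% and 9.66% of 3849 genes). In fibroblasts 2 of 10 were higher and 2 lower (3.41% and 13.4% of 11319 genes). In smooth muscle cells and pericytes 2 of 8 were higher and 1 lower (6.31% and 11.1% of 8088 genes), and in endothelial cells 1 of 5 was higher and 0 lower (3.79% and 6.57% of 5940 genes). With so few members per class these counts are not read against the shares of all genes. By member, Cd14 made 7 of the 10 higher pairs and Pycard 3 of the 5 lower ones. Just inside the 2-fold limit were Nlrp3 in neutrophils (log2 ratio -1.10) and Il18 in fibroblasts (-1.13), and just outside it Pycard in B cells (0.98) and Tlr4 in smooth muscle cells and pericytes (0.91).

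**Figure D2:**
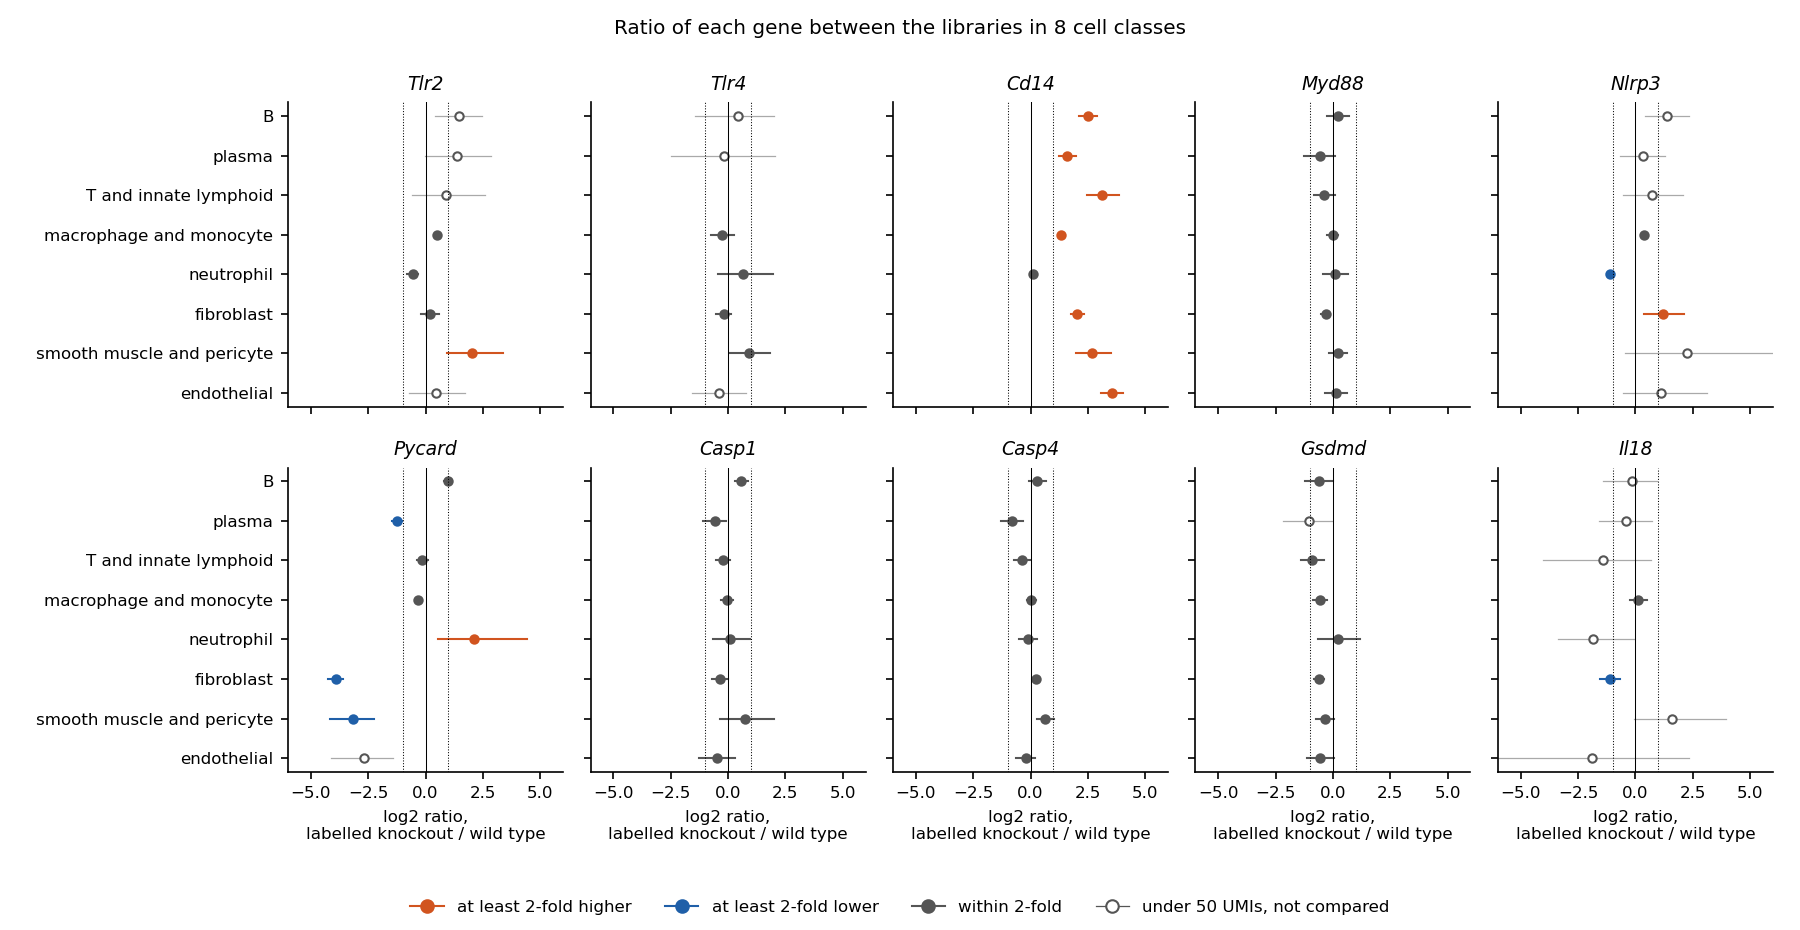
Log2 ratio of CPM, library labelled knockout over wild type (x axis), of each gene in 8 cell classes (y axis), with exact conditional binomial 95% intervals for counting error, of which those running past the axis are cut. Orange and blue points are at least 2-fold higher or lower (dotted lines), grey points within 2-fold, and open points had under 50 UMIs. Cd14 lay at or above 1.31 in 7 classes and at 0.09 in neutrophils, and Pycard lay between -3.92 in fibroblasts and 2.12 in neutrophils.

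Tlr2, the receptor of bacterial lipoproteins, was a gene of neutrophils and macrophages in both libraries. In neutrophils it stood at 672 CPM (572 to 784) in the wild-type library and 456 CPM (430 to 483) in the other, a ratio of 0.679 (0.575 to 0.806). Macrophages and monocytes came next, at 238 against 338 CPM (1.42-fold higher, 1.29 to 1.58), and there 34.5% against 50.5% of cells had a UMI, at median depths of 3091 and 2878 UMIs. In T and innate lymphoid cells the shares were 0.664% and 1.38% at medians of 1746 and 1481.5 UMIs. The intervals of neutrophils and macrophages did not overlap in either library, and the other 6 classes compared stood at or below 25.1 CPM. Smooth muscle cells and pericytes were the class in which Tlr2 was called apart, at 6.06 CPM (7 UMIs) against 25.1 CPM (98 UMIs), 4.13-fold (1.93 to 10.6), with a UMI in 1.43% against 5.51% of cells. That class was made of unlike cells in the libraries: cluster 7 held 273 wild-type cells and 21 of the other library, cluster 14 held 83 and 1328, and cluster 17 held 65 and 139. Its summed smooth muscle markers stood at 19563 against 5232 CPM and its summed fibroblast markers at 13039 against 30646 CPM, and their part in the ratios of this class was not tested. Within the clusters Tlr2 had 5 and 2 UMIs in cluster 7 (6.63 against 26.7 CPM), 1 and 85 in cluster 14 (4.93 against 24.6 CPM) and 1 and 11 in cluster 17 (5.07 against 29.2 CPM). The intervals of these 3 ratios all included 1. In fibroblasts Tlr2 stood at 13.4 against 15.4 CPM.

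Tlr4, the receptor of lipopolysaccharide (LPS), was counted in few cells of any class, and no class separated the libraries by 2-fold. It stood at 29.4 against 45.6 CPM in neutrophils (7 and 119 UMIs), 25.6 against 21.6 CPM in macrophages and monocytes, 21.5 against 18.9 CPM in fibroblasts (log2 ratio -0.19, turned to 0.19 by TMM scaling) and 12.1 against 22.8 CPM in smooth muscle cells and pericytes. The wild-type intervals of the first 3 of these classes overlapped, so they cannot be ordered. In T and innate lymphoid cells Tlr4 had 0 UMIs in both libraries, under a limit of 1.61 and 1.39 CPM set by 3 UMIs. Scaled by TMM the ratio passed 2-fold in neutrophils (log2 1.03) and in smooth muscle cells and pericytes (1.21).

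Cd14, the co-receptor that hands LPS to TLR4 and its partner, was at least 2-fold higher in the library labelled knockout in 7 of the 8 classes. In neutrophils, where its level was highest of the classes, it stood at 10416 CPM (10010 to 10834) against 11103 CPM (10976 to 11232), a ratio of 1.07 (1.02 to 1.11), with a UMI in 94.6% and 99.0% of cells. Neutrophils were thus the 1 class in which the libraries were within 2-fold. Macrophages and monocytes stood at 2934 CPM (2864 to 3005) against 7275 CPM (7187.5 to 7362.5), 2.48-fold higher (2.41 to 2.55), and 65.3% against 88.0% of their cells had a UMI. The class was made of 2 clusters, and Cd14 was higher in both. In cluster 0, led by C1qa, C1qb and C1qc, complement genes of resident macrophages, Cd14 stood at 1089 against 5924 CPM (5.44-fold, 5.12 to 5.78). In cluster 10, led by Chil3, Lyz2 and Il1b, genes of monocytes and inflammatory macrophages, it stood at 4644 against 8707 CPM (1.87-fold, 1.82 to 1.93). Summed dendritic markers in cluster 10 stood at 1087 against 322 CPM. At resolution 2.0 a cluster led by Il1b, Plbd1 and Cd209a, of 163 and 116 cells, stayed unnamed. The part of dendritic cells in the ratios of cluster 10 was not tested. The gap between clusters 0 and 10 was smaller in the library labelled knockout, and the difference between their ratios was not tested.

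Endothelial cells had the highest ratio of Cd14, at 48.5 CPM (38 UMIs) against 564 CPM (830 UMIs), 11.6-fold (8.41 to 16.6), with a UMI in 7.36% against 38.7% of cells. Of the 2 endothelial clusters, 19 (led by Plvap and Fabp4, genes of blood vessels) had 33 UMIs in 128 cells against 635 UMIs in 185 cells, and 23 (led by Lyve1 and Ccl21a, genes of lymphatic vessels) 5 UMIs in 103 cells against 195 UMIs in 190 cells. The 5 cells with the most Cd14 held 40.1% of its endothelial UMIs in the library labelled knockout, so part of the sum rested on few cells, while 145 of 375 cells had at least 1. Erythroid cells, which should lack Cd14, had a UMI in 6.98% and 25.7% of cells, at medians of 9157 and 7479 UMIs against 2557 and 2709 in endothelial cells. In the other 5 classes Cd14 stood at 10.7 to 23.7 CPM in the wild-type library and at 49.9 to 97.8 CPM in the other. Its ratio was 8.68 (5.47 to 14.5) in T and innate lymphoid cells, 6.50 (4.0 to 11.3) in smooth muscle cells and pericytes, 5.73 (4.37 to 7.55) in B cells, 4.12 (3.44 to 4.97) in fibroblasts and 3.03 (2.33 to 3.98) in plasma cells. Within the clusters of smooth muscle cells and pericytes it was 3.897 (1.65 to 12.1) in cluster 14, 10.7 (2.79 to 91.7) in cluster 17 and 1.01 (0.0232 to 7.08, from 10 and 1 UMIs) in cluster 7. Within fibroblast clusters 11, 20 and 22 it was 3.69, 7.86 and 7.15. In cluster 18, which held 885 of the 1508 fibroblast UMIs of the library labelled knockout, it was 1.64 (1.21 to 2.26). Cluster 5, with 814 wild-type cells and 5 of the other library, had 18.5 CPM in the wild type. The shares of cells with a UMI were 16% of T and innate lymphoid cells (151 of 944), 11.7% of B cells and 18.3% of smooth muscle cells and pericytes. These 3 shares were below the 25.7% of erythroid cells of the same library, which were sampled more deeply, while fibroblasts (8.09% against 32.8%) and plasma cells (12.9% against 36.4%) stood above it. With each cell thinned to 1000 UMIs, the shares in that library were 10.1% of T and innate lymphoid cells, 9.18% of B cells, 7.97% of smooth muscle cells and pericytes and 3.96% of erythroid cells (4 of 101). The order of the shares thus changed with depth, and none is read from them.

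RNA of neutrophils moved with Cd14 in these classes. S100a8 and S100a9, the most abundant neutrophil markers, summed to 75.8 against 772 CPM in T and innate lymphoid cells and to 66.3 against 1288 CPM in endothelial cells. For every 100 UMIs of S100a8 and S100a9, neutrophils had 8.51 UMIs of Cd14 in the wild-type library and 6.11 in the other. T and innate lymphoid cells had 14.2 and 12.1, B cells 32.3 and 8.08, and fibroblasts 54.7 and 15.6. Endothelial cells had 73.1 and 43.8, and macrophages and monocytes 3782 and 166. Plasma cells had 34.5 and 10.8. Among these classes of the library labelled knockout, B cells, plasma cells and T and innate lymphoid cells came closest to the value of neutrophils. A bound on free RNA was taken as the lowest mean UMIs per cell of any named class with at least 40 cells. Cd14 in that library stood at 1.40 times the bound in T and innate lymphoid cells, 4.0 times in fibroblasts, 14.5 times in endothelial cells and 166 times in macrophages and monocytes. Erythroid cells, which should lack Cd14, stood at 2.01 times the bound, so it is not an upper limit in every class. B cells set that bound. The part of free RNA in the ratios of Cd14 was not tested.

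**Figure D3:**
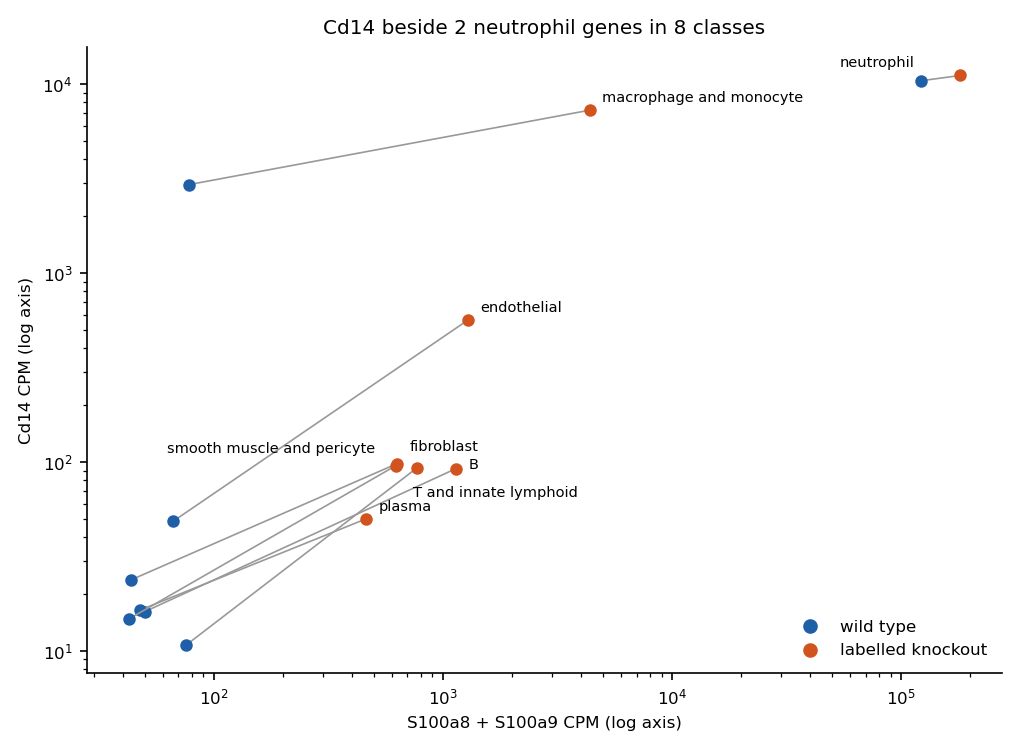
Cd14 CPM (y axis, log scale) beside the summed CPM of the neutrophil genes S100a8 and S100a9 (x axis, log scale) in 8 classes of the wild-type library (blue) and the library labelled knockout (orange), with a line joining the points of a class. Both values were higher in the library labelled knockout in every class, by little in neutrophils (10416 against 11103 CPM of Cd14), and endothelial cells and macrophages stood above the other non-neutrophil classes.

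Myd88, the adaptor of most Toll-like receptors and of the receptors of interleukin-1 and interleukin-18, was within 2-fold in all 8 classes. It stood at 139 against 146 CPM in neutrophils, 114 against 113 CPM in macrophages and monocytes, 67.6 against 73.4 CPM in endothelial cells and 67.5 against 53.9 CPM in fibroblasts. Neutrophils and macrophages had overlapping intervals in the wild-type library and could not be ordered there. B cells (26.2 against 30.5 CPM) and plasma cells (11.03 against 7.46 CPM) had the lowest levels of the 8 classes in both libraries. Its ratios ran from 0.676 in plasma cells to 1.165 in B cells, and the interval excluded 1 in fibroblasts (0.799, 0.706 to 0.906), where TMM scaling turned the log2 ratio from -0.32 to 0.05.

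Nlrp3, a sensor that responds to potassium loss and other signs of cell damage, was found mainly in neutrophils and macrophages. In neutrophils it stood at 1595 CPM (1439 to 1764) against 745 CPM (713 to 779), a ratio of 0.467 (0.418 to 0.523), with a UMI in 71.3% against 57.7% of cells at median depths of 1333 and 1940.5 UMIs. The share of T and innate lymphoid cells with a UMI was 0.997% and 1.48%. At a resolution of 2.0 neutrophils divided into 2 clusters. The first, led by Ngp, a granule gene of immature neutrophils, held 17 and 668 cells and had 549 against 508 CPM of Nlrp3. The second held 150 and 588 cells and had 1762 against 1149 CPM. Within both clusters the libraries were less than 2-fold apart, and the cluster with less Nlrp3 made up most neutrophils of the library labelled knockout and few of the wild type. The ratio over all neutrophils also fell inside 2-fold under TMM scaling (log2 -0.71), with stricter limits on cells (-0.93) and after thinning each cell to 1000 UMIs (-0.77).

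In macrophages and monocytes Nlrp3 stood at 417 CPM (391.5 to 444.6) against 541 CPM (517 to 565), 1.30-fold higher (1.20 to 1.40), and the order of the 2 classes was the same in both libraries. Cluster 10 had 524 against 719 CPM and cluster 0 303 against 372 CPM. Cluster 10, which also held RNA of dendritic markers, thus had more Nlrp3 than cluster 0 in each library. In fibroblasts Nlrp3 was rare, at 2.58 CPM (14 UMIs) against 5.84 CPM (90 UMIs), and was called 2.27-fold higher (1.28 to 4.31), with a UMI in 1.168% against 2.91% of cells, and with doublets kept the log2 ratio was 0.86. Erythroid cells, which should lack it, had a UMI in 2.33% and 5.94% of cells at medians of 9157 and 7479 UMIs, against 4279 and 5968 UMIs in fibroblasts. The mean UMIs per fibroblast were 4.92 and 3.38 times the bound on free RNA. Those per erythroid cell were higher, at 9.79 (1 UMI) and 5.52 times the bound. The share of wild-type erythroid cells is 1 of 43, and the part of free RNA in the ratio was not tested. The other 5 classes had under 50 UMIs of Nlrp3.

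Pycard, which encodes ASC, the adaptor that joins sensors to caspase-1, differed most between the libraries and not in 1 direction. Its level was highest in the wild-type epithelium, at 620 CPM (602 to 640), where 49.0% of cells had a UMI. The 13 cells named epithelial in the other library, which held less RNA of epithelial markers, had 0 UMIs of Pycard, under a limit of 173 CPM set by 3 UMIs. It was lower in fibroblasts, smooth muscle cells and pericytes, and plasma cells of the library labelled knockout, higher in neutrophils, and within 2-fold in macrophages, T cells and B cells. The promoters of Pycard and of its partner Casp1, which was within 2-fold in every class compared, are shown as background to the label, since Elf1 is a factor that binds around the letters GGAA. They are windows from 250 bases before to 50 after the start of the gene, from RefSeq on GRCm38.p6 and written in the direction of the gene, with GGAA on either strand in capitals. The Pycard window is at chr7:127993818-127994117 on the minus strand and the Casp1 window at chr9:5298267-5298566 on the plus strand.
Pycard: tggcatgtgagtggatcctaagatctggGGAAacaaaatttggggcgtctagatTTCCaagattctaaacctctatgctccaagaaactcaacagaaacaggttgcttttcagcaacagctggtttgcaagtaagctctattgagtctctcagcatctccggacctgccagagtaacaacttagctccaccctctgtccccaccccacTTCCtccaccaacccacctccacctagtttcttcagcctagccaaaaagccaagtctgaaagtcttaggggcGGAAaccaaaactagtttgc
Casp1: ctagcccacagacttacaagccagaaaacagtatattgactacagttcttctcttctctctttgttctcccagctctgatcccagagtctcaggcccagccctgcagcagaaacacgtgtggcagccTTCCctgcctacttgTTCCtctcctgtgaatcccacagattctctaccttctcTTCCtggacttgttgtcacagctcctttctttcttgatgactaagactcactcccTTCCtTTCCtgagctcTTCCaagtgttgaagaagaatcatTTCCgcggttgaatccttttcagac
GGAA was in 4 places in the Pycard window and in 7 in the Casp1 window, and 96.0% of all 32851 windows of that length hold it on some strand. The longer ETS motif CCGGAAGT, found in 3.89% of all windows, was in none of the windows of the 7 members with an entry. These members were Tlr2, Myd88, Nlrp3, Pycard, Casp1, Casp4 and Il18. Nor did their windows hold CCGGAA, which lies within that motif and is in 14.9% of all windows. Of the kappa B motif 1 form was searched, GGGA and TTTCC with 1 free base between them (0.411%), and none held it. The Casp4 windows hold GGGATTTCCC, which that form does not match, and other forms were not searched. The interferon-stimulated motif of GAAA and GAAA with 2 free bases between them (3.44% of all windows) was in the window of Myd88. All motifs were searched on both strands, and a match or its absence describes the letters of these windows only.

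In fibroblasts Pycard stood at 83.2 CPM (75.7 to 91.2) against 5.51 CPM (4.40 to 6.81), or 452 UMIs in 1199 cells against 85 UMIs in 2474 cells, 15.1-fold lower (11.9 to 19.3). The share of fibroblasts with a UMI was 22.2% against 2.99%, and the 5 cells with the most Pycard held 7.74% and 14.1% of its UMIs, so the sums were spread over many cells. Most wild-type fibroblasts lay in cluster 5, led by Lpl, Adamdec1 and Sfrp2, and most others in clusters 18 (led by Mmp10 and Mmp13, collagenase and stromelysin genes of wounded tissue) and 11 (led by Cxcl13 and Ccl11). Cluster 5 had 112 CPM in 814 wild-type cells and no UMI in the 5 cells of the other library. The remaining clusters held both libraries, and Pycard was lower in the library labelled knockout in each: 31.3 against 6.16 CPM in cluster 11, 29.1 against 5.41 in cluster 18, 39.1 against 4.97 in cluster 22 and 20.5 against 5.30 in cluster 20. In cluster 20 the intervals overlapped, with 4 and 2 UMIs, and in clusters 11, 18 and 22 they did not. The ratio over all fibroblasts was larger than within these clusters, since cluster 5 had the highest wild-type level and almost no cells of the other library.

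RNA of epithelial cells also moved with Pycard in stroma, as epithelial markers summed to 382 CPM in wild-type fibroblasts and 13.5 CPM in the others. For every 100 UMIs of epithelial markers, the wild-type epithelium had 1.504 UMIs of Pycard, wild-type fibroblasts 21.8 and wild-type cells of cluster 5 29.4, so the ratio in wild-type fibroblasts was above that of the epithelium. Wild-type smooth muscle cells and pericytes had 7.63 and wild-type endothelial cells 6.42. In smooth muscle cells and pericytes Pycard stood at 32.0 CPM (37 UMIs) against 3.58 CPM (14 UMIs), 8.95-fold lower (4.73 to 17.9). Of the 37 wild-type UMIs 30 lay in cluster 7, where the 21 cells of the other library had 0. In clusters 14 and 17 Pycard was 4.26-fold (0.771 to 15.8) and 3.81-fold (0.547 to 42.2) lower, with intervals that included 1, from 3 against 12 and 4 against 2 UMIs. In endothelial cells it had 24 against 7 UMIs, too few to be compared. Erythroid cells, which should hold little Pycard, had a UMI in 6.98% and 0.990% of cells, at medians of 9157 and 7479 UMIs against 4279 and 5968 in fibroblasts. Wild-type smooth muscle cells and pericytes, with a UMI in 7.60% of cells at a median of 2552 UMIs, stood close to that share.

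Plasma cells, the most deeply sampled class at medians of 14556.5 and 12634.5 UMIs, stood at 137 CPM (126 to 147) against 57.8 CPM (50.9 to 65.5), 2.36-fold lower (2.04 to 2.74), with a UMI in 68.4% against 39.3% of cells. In this class the difference lay in many cells. Neutrophils had 3 UMIs in 167 wild-type cells and 143 UMIs in 1256 cells of the other library, 12.6 against 54.8 CPM, a ratio of 4.35 with an interval of 1.46 to 21.4. Wild-type neutrophils set the bound on free RNA of their library, so the ratio rests on a wild-type level not told from background. Macrophages and monocytes stood at 261 against 209 CPM (0.799, 0.718 to 0.891) and T and innate lymphoid cells at 146 against 133 CPM (0.911, 0.769 to 1.08). These were the classes, other than B cells, where Pycard was at like levels in both libraries.

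B cells had 168 CPM (157 to 180) of Pycard against 331 CPM (304 to 360), 1.97-fold higher (1.77 to 2.19), while the share of cells with a UMI was lower, 12.1% against 5.84%. Their 3 clusters did not move together. In cluster 9, led by Pclaf, Ms4a1 and Rgs13, Pycard stood at 336 against 1298 CPM in 289 and 47 cells. The 5 cells with the most Pycard held 55.0% and 71.8% of its UMIs there, with up to 161 and 139 UMIs in a single cell. Cluster 1 had 69.3 against 14.2 CPM and cluster 2 71.9 against 83.3 CPM. The direction in B cells thus rested on a few cells: the log2 ratio of 0.98 became -0.34 as the mean over cells of each cell's CPM and -2.16 where each library was clustered on its own, and in the latter that of T and innate lymphoid cells became 1.19.

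**Figure D4:**
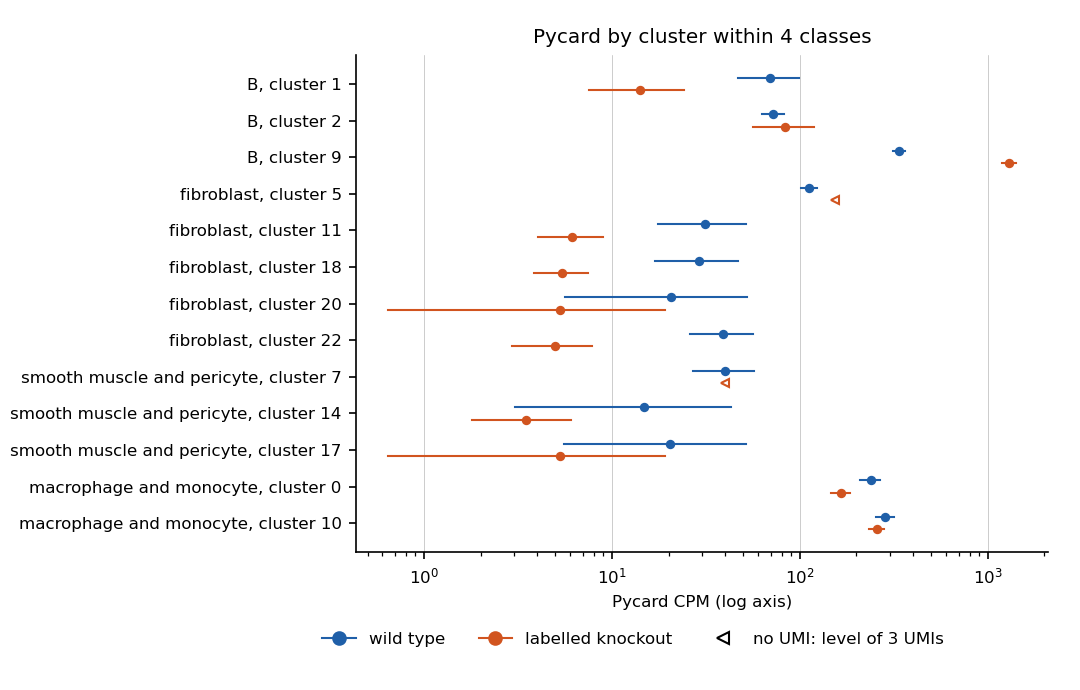
Pycard CPM (x axis, log scale) in the clusters of B cells, fibroblasts, smooth muscle cells and pericytes, and macrophages and monocytes (y axis), in the wild-type library (blue) and the library labelled knockout (orange), with exact Poisson 95% intervals and open triangles at the level of 3 UMIs where none was counted. Clusters 11, 18 and 22 of fibroblasts lay lower in the library labelled knockout, B cell cluster 9 lay higher (336 against 1298 CPM), and both macrophage clusters were within 2-fold between libraries.

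Casp1, the protease activated by inflammasomes, was within 2-fold in all 8 classes. In the wild-type epithelium it stood at 213 CPM (202 to 224), above every other wild-type class. T and innate lymphoid cells had 102 against 87.7 CPM, macrophages and monocytes 91.9 against 89.03 CPM, B cells 66.03 against 98.7 CPM and neutrophils 63.0 against 67.9 CPM. The intervals of lymphocytes of the T lineage and of macrophages overlapped in both libraries. Within T and innate lymphoid cells the ratio of Casp1 was 0.554 (0.392 to 0.778) in cluster 3, 1.88 (1.38 to 2.56) in cluster 6 and 0.497 (0.288 to 0.874) in cluster 15. Over whole classes its ratio was highest in smooth muscle cells and pericytes (1.66, 0.775 to 4.08, from 8 and 45 UMIs), which TMM scaling moved to a log2 ratio of 1.03. It was lowest in plasma cells (0.672, 0.471 to 0.952). Fibroblasts, in which Pycard was 15.1-fold lower, had 20.4 against 16.01 CPM of Casp1 (0.784, 0.624 to 0.990), and TMM scaling moved that log2 ratio from -0.35 to 0.02. Cluster 5, with few cells of the other library, held 91 of the wild-type UMIs, and within clusters 11, 18, 20 and 22 the ratios were 1.48, 1.93, 1.03 and 0.962, with intervals that included 1.

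Casp4, the caspase that binds LPS in the cytosol and can cleave gasdermin D without an inflammasome, was also within 2-fold in all 8 classes. Neutrophils had the highest level among the 8 classes, 260.3 CPM (199.6 to 333.7) against 240.0 CPM (221.6 to 259.6), with a log2 ratio of -0.12 that became 0.28 under TMM scaling. Macrophages and monocytes came next with 143 against 147 CPM. Endothelial cells had 99.5 against 85.7 CPM, fibroblasts 59.1 against 69.8 CPM and smooth muscle cells and pericytes 62.4 against 97.7 CPM, a ratio of 1.57 (1.22 to 2.04). Within clusters of the last class the direction differed, with a ratio of 0.643 (0.439 to 0.977) in cluster 14, 1.97 (1.12 to 3.66) in cluster 17 and 1.49 (0.379 to 4.28) in cluster 7. Stromal cells thus held Casp4 in both libraries, with a UMI in 17.8% and 29.5% of fibroblasts and in 6.93% of the erythroid cells of the library labelled knockout, whose median depth was 7479 UMIs against 5968 in its fibroblasts. Casp1 and Casp4 are related in sequence as well as neighbours, and the sources used here do not say how reads that match both were counted.

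Gsdmd, the pore of pyroptosis, was within 2-fold in the 7 classes compared, and in 6 of them its ratio lay below 1. The wild-type epithelium had 187 CPM (177 to 198) and a UMI in 43.9% of cells, the highest of the wild-type classes, against 4.65% of erythroid cells. Among the classes compared, the ratio was 0.535 (0.377 to 0.752) in T and innate lymphoid cells, 0.652 (0.559 to 0.763) in fibroblasts, 0.662 (0.431 to 0.986) in B cells and 0.670 (0.542 to 0.828) in macrophages and monocytes, with intervals below 1. In endothelial cells (0.675, 0.449 to 1.02) and in smooth muscle cells and pericytes (0.779, 0.591 to 1.04) the interval reached 1. The Gsdmd log2 ratio was -0.62 in fibroblasts, -0.36 in smooth muscle cells and pericytes, -0.57 in endothelial cells and -0.58 in macrophages and monocytes. The TMM shifts of those classes were -0.38, -0.30, -0.20 and -0.17, and are not taken out of these ratios. In T and innate lymphoid cells and B cells the log2 ratios were -0.90 and -0.60 and the shifts 0.086 and 0.058. Neutrophils, with 12 and 152 UMIs, had a ratio of 1.16 (0.643 to 2.29), which was below 1 with doublets kept, under stricter limits on cells and after thinning. Within the fibroblast clusters 11, 18, 20 and 22 the ratio was 1.066, 0.623, 0.825 and 0.713, and its interval excluded 1 in cluster 18 alone. Both macrophage clusters had less Gsdmd in the library labelled knockout, at 73.9 against 47.8 CPM in cluster 0 and 77.7 against 54.0 CPM in cluster 10. In T and innate lymphoid clusters 3, 6 and 15 the ratio was 0.463, 0.605 and 0.739, with an interval that excluded 1 in cluster 3 alone. Summed epithelial markers were also higher in the wild-type library in all 8 classes, and their part in these ratios was not tested.

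Il18 was a gene of the wild-type epithelium, which held 89.3% of its wild-type UMIs. It stood there at 327 CPM (313 to 341), with a UMI in 35.2% of cells at a median of 2061 UMIs, against 0.775% of wild-type T and innate lymphoid cells at 1746 UMIs. Within the epithelium, cluster 4 had 393 CPM and cluster 24, led by the goblet cell genes Zg16, Agr2 and Muc2, 36.9 CPM. Pycard also differed between these clusters in the same direction, with 691 CPM in cluster 4 and 312 CPM in cluster 24. In the library labelled knockout the 13 cells named epithelial had no UMI of Il18, under a limit of 173 CPM. Those cells held 17338 UMIs, with summed epithelial markers at 9747 CPM against 41254 CPM in the wild-type epithelium. Their S100a8 and S100a9 summed to 7671 CPM, against 135 CPM there, so the 0 is not read as a level of epithelium. Macrophages and monocytes held 48.1% of the Il18 UMIs of that library. Their level of Il18 was 44.6 CPM (36.4 to 54.1) in the wild-type library and 48.6 CPM (41.7 to 56.3) in the other. Their Il18 thus did not separate the libraries (1.09, 0.850 to 1.40). Fibroblasts had 15.3 CPM (83 UMIs) against 7.002 CPM (108 UMIs), 2.18-fold lower (1.62 to 2.93), and TMM scaling brought the log2 ratio from -1.13 to -0.75. Cluster 5, with 814 wild-type cells and 5 of the other library, held 65 of the 83 wild-type UMIs. Within clusters 11, 18 and 22 the ratios were 0.766, 0.5997 and 0.924, each less than 2-fold apart and with an interval that included 1. For every 100 UMIs of epithelial markers wild-type fibroblasts had 4.0 UMIs of Il18 and the wild-type epithelium 0.793.

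Cells with UMIs of Nlrp3, Pycard and Casp1 together were few. In macrophage cluster 0 they were 15 of 270 cells (5.56%, 3.14 to 8.998) in the wild-type library and 33 of 393 (8.40%, 5.85 to 11.6) in the other, and in cluster 10 they were 9.67% (6.93 to 13.03) and 7.10% (5.26 to 9.33). The intervals of the libraries overlapped in both clusters. Among neutrophils, whose Nlrp3 was the highest of the classes, 0 of 167 wild-type cells (exact 95% interval up to 2.18%) and 5 of 1256 others (0.398%) had all 3, against 0.158% and 0.198% of B cells. Detection of 3 genes at once depends on depth, and after thinning to 1000 UMIs at most 3 cells of any of these groups had all 3.

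The 86 other genes of the pathways, in lists chosen by role, gave 319 pairs of a gene and a class that could be compared, of which 45 were at least 2-fold higher, 42 lower and 232 within 2-fold (57 higher and 23 lower with TMM scaling). That was 14.1% higher and 13.2% lower, where the shares of all genes, averaged over the classes of the same pairs, were 5.38% and 8.13%. A gene enters up to 8 pairs and the classes share RNA of other cells, so pairs are not independent and the shares are a description. Inhibitors of the receptors were at least 2-fold higher in 8 of 42 pairs (19.05%, against 5.50% of all genes) and lower in 0 (against 7.7%), and these 8 pairs came from 3 genes. Irak3, a kinase-dead relative that blocks signalling by IRAK kinases, was higher in 4 of 7 classes: 46.8 against 122 CPM in macrophages and monocytes, 37.7 against 98.9 CPM in fibroblasts, 13.9 against 67.3 CPM in smooth muscle cells and pericytes and 24.2 against 91.8 CPM in endothelial cells. Tnip1, which restrains NF-kappa B signalling, was higher in 3 of 8 classes, and in smooth muscle cells and pericytes stood at 49.4 against 329 CPM (6.67-fold, 5.12 to 8.86). Within clusters 14 and 17 of that class, whose make-up differed between the libraries, the ratios were 2.52 (1.74 to 3.81) and 3.25 (1.65 to 7.11). Within its cluster 7 the ratio was 11.7 (6.02 to 22.8), from 19 UMIs in 273 cells and 22 UMIs in 21 cells. Within fibroblast clusters 11, 18, 20 and 22 the ratio of Irak3 was 1.87, 1.099, 1.55 and 2.02.

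Toll-like receptors and co-receptors were higher in 8 and lower in 14 of 57 pairs (14.04% and 24.6%, against 5.29% and 8.20% of all genes). In macrophages and monocytes Tlr12, a receptor of the endosome, had 118 UMIs (51.1 CPM) against 6 UMIs (1.64 CPM). Cd180 and Ly86, which form a complex related to TLR4, had log2 ratios of -2.25 and -1.47 there. Summed dendritic markers stood at 878 against 276 CPM in that class, and their part in these ratios was not tested. Lbp, the protein that carries LPS to CD14, stood at 63.5 against 220.0 CPM in fibroblasts (3.47-fold, 3.10 to 3.88). It was also higher in macrophages (4.77 against 19.1 CPM) and in smooth muscle cells and pericytes (3.46 against 16.4 CPM). Fibroblast cluster 22 held 270 and 3090 UMIs of Lbp, and the ratio there was 2.27 (2.00 to 2.58). In clusters 11, 18 and 20 the ratio was 1.91, 3.75 and 1.03, with an interval that excluded 1 in cluster 18 alone. Tril, an accessory of TLR4, was 10.1-fold lower (7.39 to 14.1) in fibroblasts, at 33.5 against 3.31 CPM. Of its wild-type fibroblasts' UMIs 162 lay in cluster 5, and in clusters 11, 18 and 22 the intervals of the ratio included 1, from 3 to 7 wild-type UMIs, while in cluster 20 the ratio was 0.221 (0.0369 to 0.968). Adaptors and kinases were higher in 7 and lower in 8 of 90 pairs (7.78% and 8.89%), near the 5.24% and 8.13% of all genes, with Tirap (15.2 against 5.98 CPM) and Ticam1 (11.6 against 2.99 CPM) lower in B cells and Tbk1 higher in endothelial cells (17.9 against 61.9 CPM).

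Sensors of inflammasomes were higher in 3 and lower in 5 of 32 pairs (9.38% and 15.6%, against 5.72% and 7.85% of all genes), and nothing is read from counts this small. Mefv, which encodes the sensor pyrin, stood at 214 against 80.1 CPM in neutrophils, where Nlrp3 was lower too, as were Irak2 (159.5 against 44.5 CPM) and Il1b (9400 against 3714 CPM). Ninj1, which ruptures the membrane of dying cells, also had a lower level there, at 663 against 222 CPM, and a higher one in fibroblasts (40.8 against 101 CPM). Within fibroblast clusters 11, 18, 20 and 22 the ratio of Ninj1 was 2.53, 1.25, 5.50 and 1.34. The interval included 1 in clusters 18 and 22. Among caspases and membrane pores, 2 of 49 pairs were higher and 7 lower (4.08% and 14.3%, against 5.17% and 8.28% of all genes), and the 7 came from 4 genes. Casp12, a caspase of the endoplasmic reticulum, was lower in 3 of the 3 classes compared, at 60.9 against 21.5 CPM in fibroblasts, 106.5 against 39.1 CPM in smooth muscle cells and pericytes and 49.8 against 22.4 CPM in endothelial cells. Within fibroblast clusters 11, 18, 20 and 22 its ratio was 0.834, 1.25, 0.619 and 0.473, and the interval excluded 1 in cluster 22 alone. Within clusters 7, 14 and 17 of smooth muscle cells and pericytes it was 0.463, 0.523 and 0.917, with intervals that included 1. Gsdmc4, a gasdermin of the epithelium, had 83 wild-type UMIs in B cells and 53 in fibroblasts and 0 in the other library, at least 8.65-fold and 50.1-fold lower against 3 UMIs over the class. Cytokines and their receptors were higher in 17 and lower in 8 of 49 pairs (34.7% and 16.3%, against 5.65% and 8.48% of all genes), and the 17 came from 5 genes. Il1r2, a decoy receptor of interleukin-1, was higher in 6 of 8 classes, with 257 against 1055 CPM in macrophages and monocytes, and it is itself one of the neutrophil markers. Il18bp, the secreted protein that binds and blocks interleukin-18, was lower in fibroblasts (26.1 against 4.15 CPM), in smooth muscle cells and pericytes (34.6 against 5.37 CPM) and in endothelial cells (71.5 against 35.4 CPM). Of its wild-type fibroblast UMIs 106 lay in cluster 5. Within fibroblast clusters 11, 18, 20 and 22 the ratio of Il18bp was 0.173, 0.375, 0.722 and 0.264. The interval included 1 in clusters 18 and 20. Within clusters 7, 14 and 17 of smooth muscle cells and pericytes the ratio was 0.387, 0.0954 and 0.612. There the interval excluded 1 in cluster 14 alone.

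**Figure D5:**
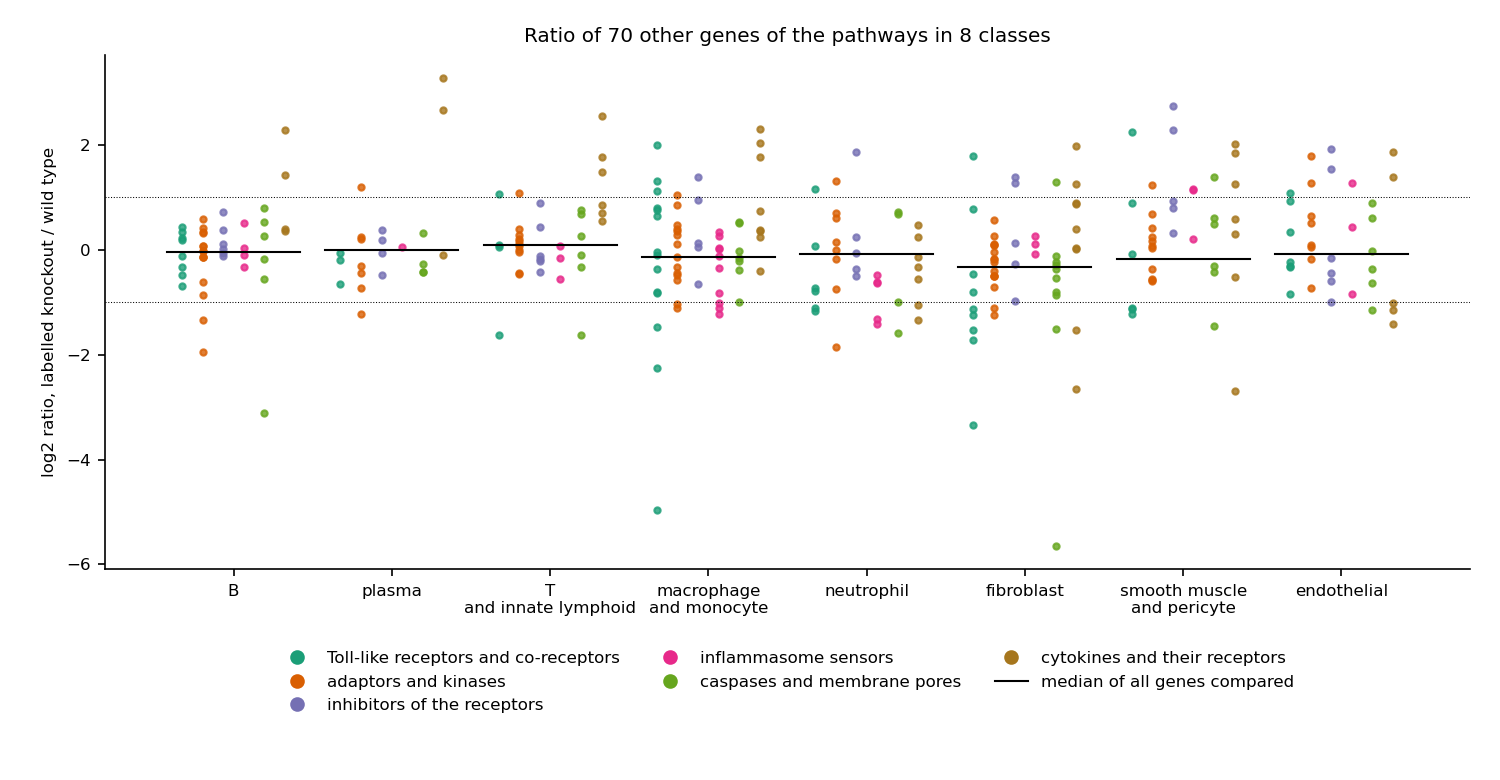
Log2 ratio of CPM, library labelled knockout over wild type (y axis), of the 70 other pathway genes with at least 50 UMIs in a class, in 8 classes (x axis), coloured by list, with a line at the median of all genes compared in the class and dotted lines at 2-fold. A count of 0 was taken as 3, as for Gsdmc4 in fibroblasts (-5.65), and Tlr12 in macrophages and monocytes lay at -4.96.

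The genes whose levels over 13 classes in both libraries (26 points) followed each member most closely were taken from 11956 genes by Pearson's r of log2(CPM + 1), as a description. The points share libraries and depth, and classes of few cells weigh as much as large ones. For Nlrp3 they were Itgam (0.95), Adam8 (0.93) and Gm46224 (0.93), for Cd14 Wfdc17 (0.90), Fpr1 (0.89) and Mcemp1 (0.87), and for Tlr2 Rnf149 (0.92), Il1a (0.92) and Slc16a3 (0.90). For Myd88 they were Rb1cc1 (0.95), Atp2c1 (0.94) and Atp6v1e1 (0.94), and for Casp4 Rab7 (0.94), Mrpl33 (0.92) and Sem1 (0.92). Tlr4 was followed by Cdc42ep2 (0.90), Cdc42ep4 (0.90) and C1rl (0.89), Gsdmd by Ugp2 (0.89), Anxa2 (0.89) and Zfand3 (0.88), and Casp1 by Rnf111 (0.86), Trrap (0.85) and Fam117b (0.84). Pycard, with Rbks (0.84), Dera (0.83) and Hes6 (0.82), and Il18, with Rnd3 (0.76), Gdf15 (0.74) and Sfxn2 (0.73), had the least alike neighbours among the members.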

How the data were processed

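Per the labels' protocols, dissociated colon cells of 3 mice per group were captured on Singleron GEXSCOPE microchips, with 1 library per group. Per the submitters' processing notes, cutadapt 1.17, STAR 2.6.1a and featureCounts 2.0.1 were used with GRCm38. Per the file headers and the values, the deposited matrices hold counts of UMIs, not normalized, in 8635 and 10012 barcodes, each with at least 500 UMIs. Barcodes under 200 genes or over 25% mitochondrial UMIs were left out here. Scrublet in scanpy 1.11.5 called 2.67% of barcodes doublets in the library labelled knockout, and these 260 were removed. It called 0.0246% in the wild-type library, a sign that it had not worked, so the 5% of highest score (406) were removed there. Both libraries were clustered together without the 10 members (2000 variable genes, 30 components, 15 neighbours, Leiden resolution 1.0, igraph 0.11.9). Clusters were named from marker lists by fold over the median cluster, needing 3 markers among the 50 leading genes and 1 among the leading 10, a rule set after the clusters had been seen. 2 clusters stayed unnamed (67 and 213 cells), and values may depend on these rebuilt names.

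UMIs were summed per class and divided by the class total (CPM), with exact Poisson intervals, exact binomial intervals of shares and exact conditional binomial intervals of ratios, all at 95% (python 3.11.15, pandas 2.3.3, numpy 2.4.6 and scipy 1.17.1). For a fold against 0 UMIs, 3 were used, which makes it a bound. The method was tested on simulated data. TMM factors came from edgeR 4.0.16, and no test was made. The members and lists were chosen with earlier results of these data known. Genes named from the pathway lists came from the 3 highest and 3 lowest ratios of a class past 2-fold, and others named beside them (Ninj1 in fibroblasts, Il18bp in endothelial cells, Casp12 in fibroblasts, Irak3 in macrophages, Il1b in neutrophils) were chosen after their values were seen. Alternatives were TMM scaling, no minimum of UMIs, the mean over cells, doublets kept, at least 1000 UMIs with at most 10% mitochondrial UMIs, thinning to 1000 UMIs, resolution 2.0, each library clustered on its own and subtraction of the bound on free RNA.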

Additional observations from a re-analysis of the deposited data

Results flagged for a closer look

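Pycard and Nlrp3 were apart in opposite directions in different cell classes, and with 1 library per group the difference between classes was not tested. The log2 ratio of Pycard (library labelled knockout over wild type) was -3.92 in fibroblasts, -3.16 in smooth muscle cells and pericytes and -1.24 in plasma cells, and 2.12 in neutrophils, where the wild-type count was 3 UMIs. The log2 ratio of Nlrp3 was -1.10 in neutrophils and 1.18 in fibroblasts, where it had 14 and 90 UMIs. Within fibroblast clusters 11, 18, 20 and 22 the intervals of the Nlrp3 ratio included 1. With cells thinned to equal depth, 0.351% and 0.337% of fibroblasts had a UMI of Nlrp3, too few to be compared.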

How the results depend on the processing

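None of the 15 called member pairs changed direction under the alternatives that gave a value. The 10 pairs higher became 16 with no minimum of UMIs. The 5 pairs lower became 3 under TMM scaling, 10 with no minimum, 3 under stricter limits on cells, 2 after thinning and 10 with free RNA subtracted. Of the other pathway genes, 45 pairs higher became 81 with no minimum and 27 after thinning, and 42 pairs lower became 23 under TMM scaling, 120 with no minimum and 15 after thinning. No minimum adds pairs and thinning removes UMIs; otherwise the cause was not tested. Cd14 in plasma cells fell inside 2-fold with doublets kept (log2 0.98). Pycard in smooth muscle cells and pericytes gave a value under 4 alternatives only. TMM removed a log2 shift of -0.39 in neutrophils and -0.38 in fibroblasts, so ratios rose there. No paired analysis was possible because the groups share only replicate number 1 and each has 1 library. Free RNA, depth, pooling of mice and the label cannot be told apart with these data.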

Other observations

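The classes under 100 cells in a library gave values for the members that were not compared. Dendritic cells (32 and 137 cells) had 23.1 against 427 CPM of Cd14, of which 5 cells held 79.8% in the library labelled knockout, and 46.1 against 103 CPM of Casp1. Mast cells and basophils (85 and 19 cells) had 2 against 16 UMIs of Nlrp3, 8 of the latter in a single cell, and 32 against 0 UMIs of Pycard. Glia and neurons (24 and 42 cells) had 162 against 145 CPM of Casp4.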
